A study of Rattus norvegicus with 4 samples.

Results

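Complement is a set of secreted proteins, receptors and membrane regulators that tags particles and microbes for uptake, and 9 of its rat genes were followed here in NR8383 cells exposed to carbon nanotubes: C1qa, C1qb, C1qc, C3, Cfb, Cfp, C3ar1, C5ar1 and Cd55. They were chosen by name, and their probes were found by matching the accession that the array gives for each non-control probe to the RefSeq gene. All 9 genes had a probe, 14 probes in all, out of 16581 named genes and 45598 non-control probes on the array. NR8383 is a rat alveolar macrophage line, started from cells washed out of a normal rat lung. The study exposed cultures of the line to NM403, a carbon nanotube material, at 0.8 cm² per cm² for 4 h, after 48 h in flasks and 20 passages, and measured messenger RNA on 1-colour arrays. The 4 arrays analysed here are 4 biological replicates of the exposed cells, 1 per culture, and all carry the same treatment. Cultures without NM403 are part of the study's plan but were not analysed here, so none of the values below is a response to NM403. The arrays show which complement transcripts were measurable after exposure and how much their signal varied between arrays. With 1 array per culture, differences between cultures and differences from array processing cannot be told apart. The cells grow partly attached and partly floating, and the line stands for alveolar macrophages as a culture model only.

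Complement can be started in 3 ways. In the classical pathway, C1q, built from the products of C1qa, C1qb and C1qc, binds to antibody or to a surface and turns on the proteases C1r and C1s, which cut C4 and C2. In the lectin pathway, mannose-binding lectins and ficolins do this with the MASP proteases. The alternative pathway runs on C3 itself: factor B (Cfb) binds to C3b, factor D (Cfd) cuts it, and properdin (Cfp) stabilises the C3 convertase that results. The peptides released from C3 and C5 act on the receptors C3ar1 and C5ar1, and Cd55, the decay-accelerating factor, takes convertases apart on the cell's own membrane. Most circulating complement is made by the liver, while macrophages are known to make C1q, properdin and several other components. Arrays measure transcripts and not the proteins.

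Each level below is the log2 processed signal of a probe minus a scaling value for its array, the 75th percentile over probes that all 4 arrays detected, so 0 lies at that percentile. A probe counted as detected where the scanner software called it well above background for more than 50% of its spots on the array. Of all named genes, 47.9% were detected on all 4 arrays. Background on the same scale came from 308 negative control spots per array, with medians between -8.34 and -7.85 and 95th percentiles between -7.76 and -7.14. Between 7 and 11 of those spots per array were themselves called well above background. The lowest probe called detected read -6.23, -6.07, -5.85 and -5.63 on replicates 1 to 4. Replicate 4 had the highest background, and 2 of its 11 quality measures, both on negative controls, were out of range. Levels of different probes are not ranked against each other, because probes differ in how strongly they bind. Of 10 macrophage markers, 8 were detected on all arrays, among them Cd68, Csf1r and Lyz2, while Adgre1 and Marco were detected on none. No array detected any of the 4 hepatocyte markers, Alb included. Of the 22 marker genes of other cell types, the endothelial markers Pecam1 and Cdh5 were detected on all arrays, Col1a2 on 2, Sftpc and S100a8 on 1 each, and the rest on none. The part of other cells in the results was not tested.

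Transcripts of 4 of the 9 genes were detected on all 4 arrays: Cfb, Cfp, C5ar1 and Cd55. The other 5, C1qa, C1qb, C1qc, C3 and C3ar1, were detected on none, and no gene fell in between. This share of 44.4% lies near the 47.9% of all named genes. At the level of probes, 7 of 14 were detected on all arrays and 7 on none. The share to set beside this is 34.2%, taken over every probe other than controls, with or without a matched gene. Cd55 alone supplied 4 of the 7 detected probes, so the probe count leans on 1 gene. In RNA from a whole culture, fewer expressing cells and less RNA per cell cannot be told apart.

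**Figure D1:**
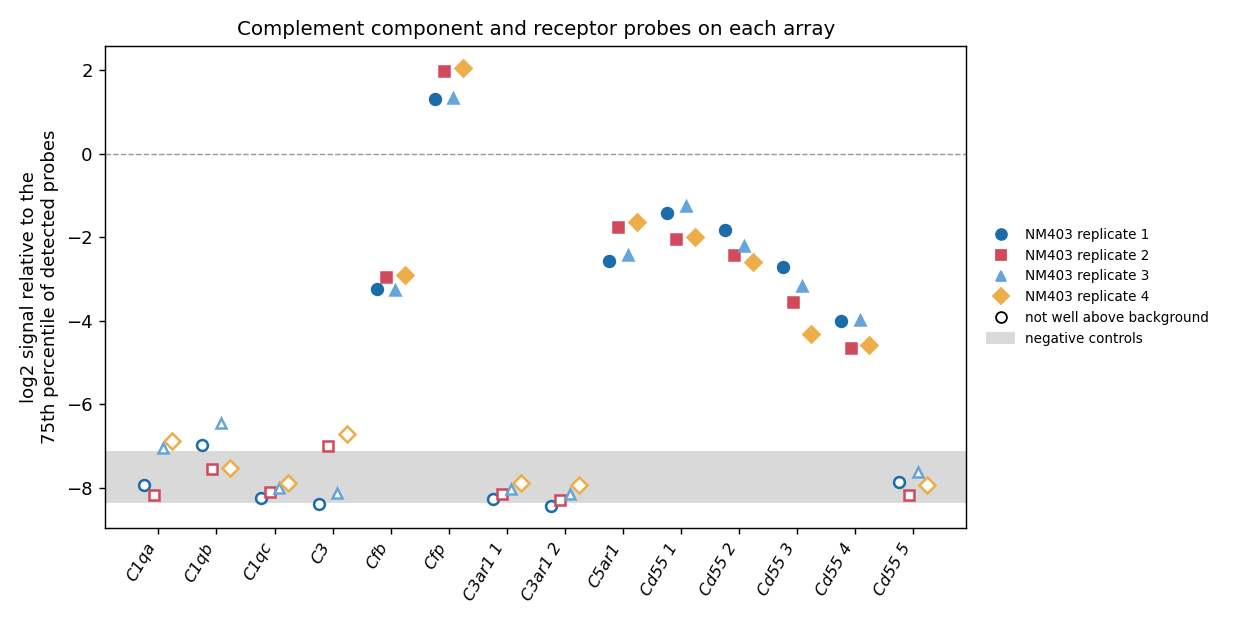
Log2 signal of the 14 probes of the 9 complement genes, relative to the 75th percentile of detected probes on the same array, with 1 symbol per NM403 culture. Numbers after a gene name its probes, brightest first; open symbols were not well above background, and the grey band runs from the lowest median to the highest 95th percentile of the negative controls. The Cfb, Cfp and C5ar1 probes and 4 of 5 Cd55 probes lie above the band on every array, and the other 7 probes lie in or next to it.

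The 3 chains of C1q, the recognition unit of the classical pathway, were measured with 1 probe each, 10 spots per array for C1qa and C1qb and 1 spot for C1qc. The C1qa probe read -7.94, -8.17, -7.04 and -6.88 on replicates 1 to 4. For C1qb the readings were -6.99, -7.55, -6.44 and -7.52. C1qc read -8.24, -8.11, -7.99 and -7.88, within 0.11 of the negative control median of the same array each time. All these values lie below the lowest probe called detected on the same array.

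Repeated spots showed more than the call alone. Leaving out spots marked as outliers, 34 of 35 C1qb spots lay above the median of the negative controls of their array and 22 above its 95th percentile. For C1qa these counts were 29 and 15 of 37 spots. The C1qb mean was 1.36 and 1.62 above the negative control median on replicates 1 and 3, and 0.65 and 0.34 above it on replicates 2 and 4. The C1qa mean was 0.41, 0.03, 1.02 and 0.97 above it on replicates 1 to 4. The C1qb signal was thus a small excess over background, larger on replicates 1 and 3, and the C1qa excess was seen mainly on replicates 3 and 4. Standard errors of the spots ran from 0.0681 to 0.241, and they cover noise within an array only. By the looser flag of the software, positive and significant, C1qb was detected on all 4 arrays, the only one of the 5 to be so. The share of all named genes under that flag is not given here. Spots called well above background were 6 of 40 for C1qb and 3 of 40 for C1qa, and 4 and 2 of these were marked as outliers.

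**Figure D2:**
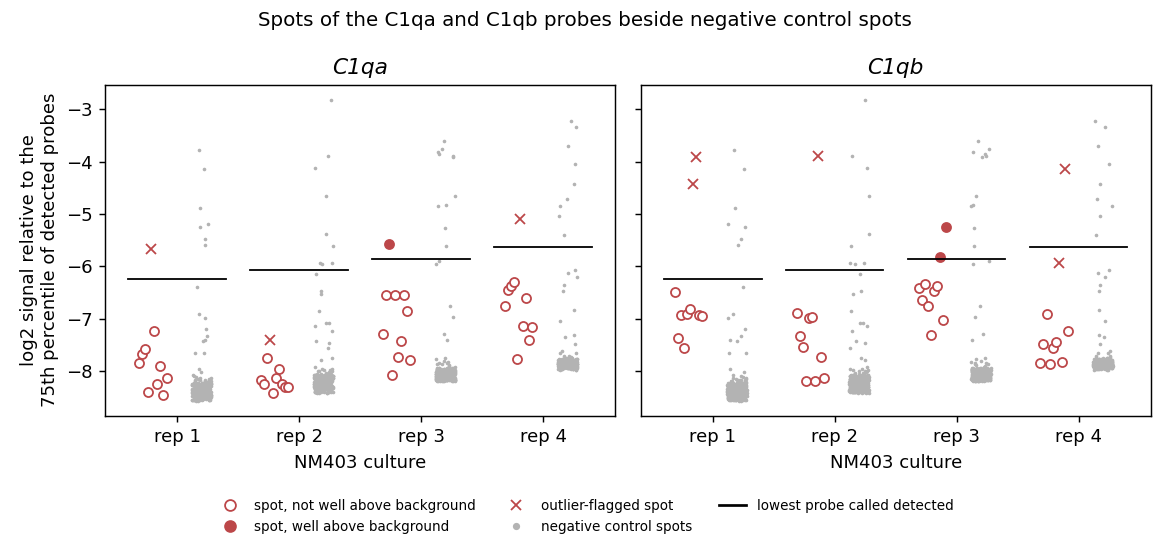
Log2 signal of each spot of the C1qa probe (left) and the C1qb probe (right) on the 4 arrays, beside the 308 negative control spots of the array in grey, with 10 spots per probe and array. Crosses are outlier spots, filled circles were called well above background, and the black line is the lowest probe called detected; the open C1qb circles lie above the bulk of the grey points on replicates 1 and 3.

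In the RefSeq gene table C1qb, C1qc and C1qa follow each other on chromosome 5, with no other protein-coding gene between them. The 250 bases before the start of 2 of these genes are shown because the genes share a cluster and a low signal, in build GRCr8, at chr5:154419934-154420183, minus strand for C1qa and chr5:154407828-154408077, minus strand for C1qb, from RefSeq, read 5′ to 3′ along the gene. No C1qc sequence was used here. Capitals mark matches, on either strand, to GAGGAA, the core bound by the macrophage factor PU.1, and to GGGCGG, the GC box. TATAAA and CCAAT were searched as well.
C1qa: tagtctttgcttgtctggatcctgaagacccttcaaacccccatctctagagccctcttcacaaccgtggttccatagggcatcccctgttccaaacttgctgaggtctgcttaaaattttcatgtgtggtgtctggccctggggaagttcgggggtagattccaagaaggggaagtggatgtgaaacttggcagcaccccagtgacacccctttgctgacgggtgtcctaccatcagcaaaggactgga
C1qb: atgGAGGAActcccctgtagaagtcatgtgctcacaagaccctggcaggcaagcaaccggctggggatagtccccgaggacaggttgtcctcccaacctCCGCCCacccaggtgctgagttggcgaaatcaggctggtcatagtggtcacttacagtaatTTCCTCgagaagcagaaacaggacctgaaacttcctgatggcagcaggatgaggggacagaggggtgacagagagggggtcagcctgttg
C1qb held GAGGAA 2 times, beginning 247 and 90 bases before the start, and GGGCGG 1 time, and C1qa held neither. TATAAA and CCAAT were in neither. The windows of C3 and C3ar1, also not detected, were searched too but are not printed. C3 held none of these motifs, and C3ar1 held GGGCGG only. Over 33469 rat windows of this length, 23.3% held GAGGAA, 30.5% GGGCGG, 12.9% TATAAA and 34.0% CCAAT. A match of so few letters is a description of the sequence and not a binding site.

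C3, on which all 3 pathways converge, had 1 probe and read -8.39, -6.99, -8.12 and -6.71 on replicates 1 to 4. On replicates 2 and 4 the reading was 1.21 and 1.14 above the negative control median, and on replicates 1 and 3 the difference from it was -0.05 and -0.06. None of these readings was called well above background, though those on replicates 2 and 4 lay above the 95th percentile of the negative controls. The 3.20-fold range of this probe is thus a range of signals near background.

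Cfb, the gene of factor B, which supplies the protease of the alternative pathway convertase, was detected on every array. Its probe gave processed signals of 285 ± 29.8, 326 ± 33.7, 233 ± 24.9 and 373 ± 39.2 on replicates 1 to 4, where the error is the one the scanner software gives for a spot. The levels were -3.25, -2.95, -3.27 and -2.89, with a mean of -3.09 ± 0.20 (SD, n = 4). Replicates 2 and 4 were the higher ones, and the whole range was 1.30-fold.

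Cfp, the gene of properdin, read 9.41 to 10.19 above the negative control median of the same array. The signals were 6744 ± 674, 10007 ± 1001, 5742 ± 574 and 11555 ± 1156 on replicates 1 to 4. Its levels were 1.31, 1.99, 1.35 and 2.06, with a mean of 1.68 ± 0.40 (SD, n = 4). Replicates 1 and 3 differed by 0.03 and replicates 2 and 4 by 0.07, while the highest and lowest array stood 1.68-fold apart. The 250 bases before the Cfp start (chrX:3715301-3715550, plus strand, GRCr8) are shown as those of a detected macrophage component, with the same motifs searched.
Cfp: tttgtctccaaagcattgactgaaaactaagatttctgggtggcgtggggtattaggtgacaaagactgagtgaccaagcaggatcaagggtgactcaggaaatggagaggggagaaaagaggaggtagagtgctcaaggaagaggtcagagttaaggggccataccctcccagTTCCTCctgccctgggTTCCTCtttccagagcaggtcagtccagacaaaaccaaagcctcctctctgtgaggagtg
Cfp held GAGGAA 2 times, 76 and 60 bases before the start on the opposite strand, and none of the other motifs.

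The receptors of the C3 and C5 peptides differed in detection. C3ar1, the receptor of C3a, had 2 probes. The first read between -8.28 and -7.89 and the second between -8.43 and -7.94, and their differences from the negative control median ran from -0.09 to 0.06. C5ar1, the receptor of C5a that draws phagocytes to sites of complement activation, was detected on all arrays with signals of 459 ± 46.5, 752 ± 75.6, 424 ± 43.2 and 899 ± 90.8. Its levels on replicates 1 to 4 were -2.57, -1.74, -2.41 and -1.63, with a mean of -2.09 ± 0.47 (SD, n = 4). Replicates 2 and 4 were again the higher ones, and the 1.92-fold range was the widest of the detected genes by their brightest probes.

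Cd55, which protects cells from their own complement, was the only membrane regulator among the 9 genes and the only one of them with more than 2 probes. The array assigns its 5 probes to 3 RefSeq transcript records. The brightest probe read -1.41, -2.03, -1.25 and -2.00 on replicates 1 to 4, with a mean of -1.67 ± 0.40 (SD, n = 4) and a 1.72-fold range. Here replicates 1 and 3 were the higher ones, the reverse of Cfb, Cfp and C5ar1. The second probe read -1.82, -2.43, -2.21 and -2.59, the third -2.72, -3.56, -3.17 and -4.31, and the fourth -4.01, -4.65, -3.99 and -4.57. On this scaling, all 4 detected probes thus had replicates 1 and 3 above replicates 2 and 4.

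The Cd55 probes did not agree on the size of the differences. Probes 1 and 4, on 1 transcript record, had 1.72-fold and 1.58-fold ranges, with replicate 3 above replicate 1 by 0.16 and 0.02. Probes 2 and 3, on another record, had ranges of 1.71-fold and 3.02-fold, with replicate 1 above replicate 3 by 0.39 and 0.46. On this scaling these records thus ordered replicates 1 and 3 in opposite ways, but the gap of probe 4 was small beside its errors. Before scaling, its signals were 168 ± 19.2 and 142 ± 16.9 on replicates 1 and 3. Scaled on the median of all non-control probes, probe 1 read 5.62 and 5.63 on them, so the contrast rests on small gaps. The 3.02-fold range of probe 3 lay between replicate 1, with a signal of 413 ± 42.0, and replicate 4, with 140 ± 19.0. Probe 5, on the third record, read between -8.17 and -7.63 and was detected on no array. Requiring every probe of a gene to be detected would drop Cd55 and leave 3 of the 9 genes. Of 21 to 23 neighbouring spots of each of the 4 detected probes, at most 2 had at least 4 times the median signal that the remaining arrays gave for that spot.

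The 250 bases before the Cd55 start (chr13:44438102-44438351, minus strand, GRCr8) are shown as those of a detected membrane regulator, with the same motifs searched. Any link between these bases and the array readings was not tested.
Cd55: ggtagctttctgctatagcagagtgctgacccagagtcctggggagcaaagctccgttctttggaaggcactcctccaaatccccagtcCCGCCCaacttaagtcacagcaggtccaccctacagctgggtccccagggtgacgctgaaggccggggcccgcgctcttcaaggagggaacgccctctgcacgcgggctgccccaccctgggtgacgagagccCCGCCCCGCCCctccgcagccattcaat
Cd55 held the GC box GGGCGG 3 times, all on the opposite strand, beginning 161, 28 and 23 bases before the start, the last 2 matches sharing a base. None of the other motifs was among its letters. The guanine and cytosine content was 64.4% for Cd55, 51.2% for Cfp, 52.4% for C1qa and 56.8% for C1qb. It was 58.8% for C3 and 50.4% for C3ar1.

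**Figure D3:**
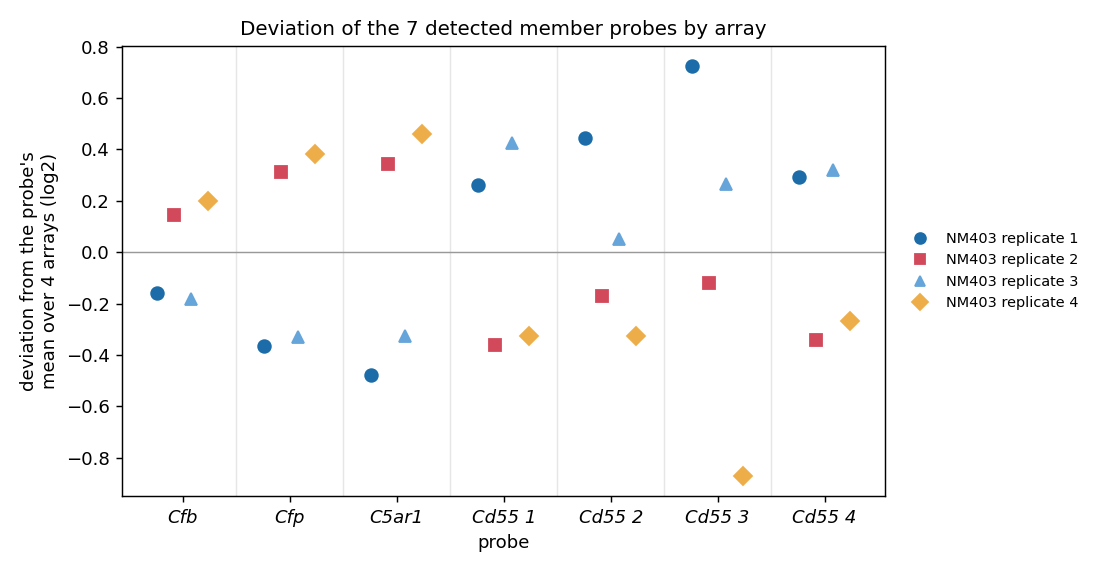
Deviation of the 7 detected complement probes from their own mean over the 4 arrays, in log2 units, with 1 symbol per NM403 culture. Replicates 2 and 4 (square and diamond) lie above 0 for Cfb, Cfp and C5ar1 and below 0 for the 4 Cd55 probes.

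Both orders of the arrays were common. Among 7935 genes whose brightest probe was detected on all arrays, 47.3% had replicates 2 and 4 both above replicates 1 and 3, and 34.5% had them both below. Of the 4 detected complement genes, 3 were of the first kind and 1 of the second, so the order as such is not particular to complement. Replicates 1 and 3, and replicates 2 and 4, were the closest arrays over all these genes (Pearson r = 0.996 and 0.992, against 0.967 to 0.970 for the other array pairs). These correlations run across genes, which are not replicates, and are given without a test. Between arrays, 0 spots had identical values. By their brightest probes, the 4 genes kept their order under all 3 other scalings, under normexp background correction and with outlier spots kept. The order of the other Cd55 probes was not examined under these settings.

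The size of the differences was above that of the median gene for 3 of the 4 genes. The median SD over those 7935 genes was 0.234, with 10th and 90th percentiles of 0.0806 and 0.577. The SD of Cfb was 0.198, above 40.4% of genes. The SDs of Cfp and Cd55 were both 0.402, above 79.3% of genes, and that of C5ar1 was 0.471, above 84.6%. On the main scaling, none reached the 90th percentile. Under the 3 other scalings the SD of C5ar1 was 0.611 to 0.681 and that of Cfp 0.300 to 0.614. The percentiles over all genes under those scalings are not given here. The SD of Cfb was 0.385 to 0.411 under the 3 other scalings and that of Cd55 0.192 to 0.295, so the order of Cfb and Cd55 depends on the scaling.

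**Figure D4:**
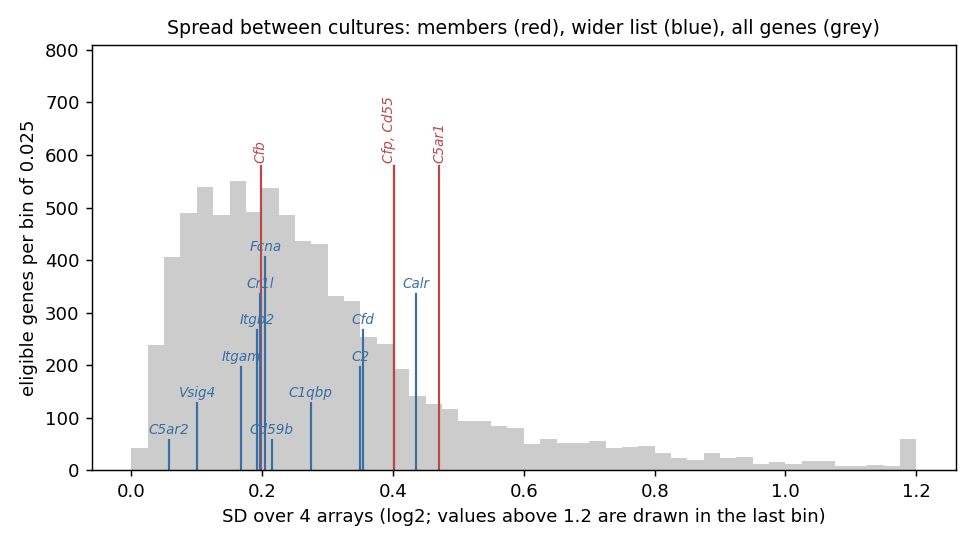
SD over the 4 arrays for 7935 genes detected on all of them (grey, in bins of 0.025 log2 units), with the 4 detected complement genes in red and 11 further pathway genes in blue. Cfp and Cd55 at 0.402 and C5ar1 at 0.471 lie right of the median of 0.234, and Cfb at 0.198 left of it.

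Genes with almost the same deviations over the 4 arrays were easy to find for each of the 3 genes above the median SD. The 3 nearest to Cfp, by root mean square difference in deviation over the 4 arrays, were Csnk2b at 0.00698, Abhd4 at 0.00704 and Pfn1 at 0.00722. Nearest to C5ar1 were Tmem101 at 0.0121, Itm2c at 0.0124 and Mrps34 at 0.0127. For Cd55 they were Cracr2b at 0.0182, Vamp7 at 0.0191 and Trip4 at 0.0196. Of the 7935 genes, 735 lay within 0.1 of the pattern for Cfp, 289 for C5ar1 and 346 for Cd55, so none of the 3 patterns is particular to complement.

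Other genes of the pathway place the 9 in context. Of 38 further complement genes listed, 33 had a named probe, and 11 of these (33.3%) were detected on all 4 arrays, 4 on some and 18 on none, where 47.9% of all named genes were detected on all. C5, C7, C8g and Itgax had no named probe, and Cd59 is named Cd59b in the rat table, which was on the list too.

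C1r and C1s, the proteases that act with C1q, were detected on no array, although 1 of the 2 spots of 1 C1s probe was well above background on replicate 1. C4a was detected on no array, and the brighter of 2 C4b probes was detected on 3, at -5.23, -5.82, -5.35 and -5.83. C4a and C4b are near-identical copies, so their probes may share transcripts. C2, which pairs with C4 as factor B does with C3 and lies next to Cfb on the chromosome, was detected on all arrays. It read -0.76, -0.21, -0.67 and -0.04, again higher on replicates 2 and 4. Of the lectin starters, Fcna, which encodes ficolin A, was detected throughout at -2.99, -2.81, -2.94 and -2.53. Mbl1, Mbl2 and Fcnb were detected on no array. Masp1 and Masp2 had 3 probes each, and 1 probe of each was called well above background, on replicate 4 alone. With the looser flag, or with the 95th percentile of the negative controls as the limit, Masp1 was detected on all arrays and Masp2 was not.

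Factors B and D and properdin of the alternative pathway were all detected, and C3 was not. Cfd, the gene of factor D, read 0.93, 1.52, 0.99 and 1.62 on replicates 1 to 4. Its probe was printed 10 times per array, and its spots had an SD of 0.0236 to 0.0407 within an array against an SD of 0.355 between arrays. Of the terminal components that build the membrane pore, C8a, C8b and C9 were detected on no array, and C6 on 3.

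Beside Cd55, the membrane regulators Cr1l, known as Crry in rodents, and Cd59b, which blocks pore assembly, were detected on all arrays. Cr1l read 0.11, 0.36, 0.12 and 0.51, and Cd59b read -0.05, -0.06, 0.22 and 0.38. Cd46, with 3 probes, was detected on no array. Cfi, C4bpa, C4bpb, Serping1, Clu and Vtn, which encode some of the plasma regulators, were detected on no array.

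Itgam (also 1 of the macrophage markers) and Itgb2, the chains of complement receptor 3, and Vsig4, a macrophage receptor for C3b, were detected on all arrays. Vsig4 read 1.13, 1.19, 0.95 and 1.09, a 1.18-fold range, and Itgb2 read 0.23, 0.51, 0.17 and 0.55. Itgam read -1.23, -1.58, -1.21 and -1.37. C5ar2, a second C5a receptor whose gene lies next to C5ar1, read -2.05, -1.98, -2.08 and -2.12 by its brighter probe. Its SD was 0.0570, or 0.253 by its other probe, against 0.471 for C5ar1. Cr2, a receptor best known from B cells, and Cd93 were detected on no array. C1qbp and Calr, whose proteins can bind C1q but have other main roles in mitochondria and the endoplasmic reticulum, were detected on all arrays, at 3.03 to 3.56 and 1.44 to 2.29.

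**Figure D5:**
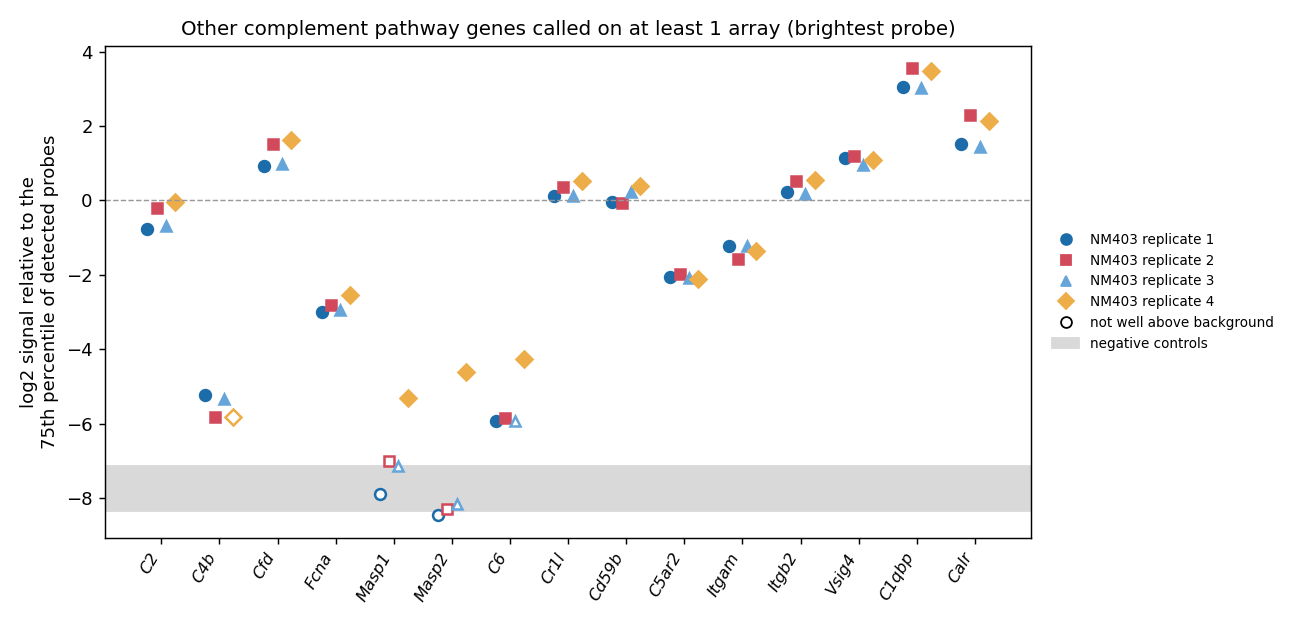
Log2 signal of the brightest probe of 15 other complement pathway genes called on at least 1 array, relative to the 75th percentile of detected probes on the same array, with 1 symbol per NM403 culture and open symbols where the probe was not well above background. The grey band runs from the lowest median to the highest 95th percentile of the negative controls. Masp1 and Masp2 have a filled symbol on replicate 4 alone, and C2 and Cfd are higher on replicates 2 and 4.

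By their brightest probes, 7 of the 11 further genes detected on all arrays had replicates 2 and 4 above replicates 1 and 3. Of the rest, 1 (Itgam) had them below and 3 had neither order. The second Itgam probe had neither order, and the second C5ar2 probe had replicates 2 and 4 higher although C5ar2 counted as neither. The counts by brightest probe moved with the scaling, as did the shares over all genes. With the 75th percentile of all non-control probes the 11 genes split 11, 0 and 0, and the shares were 69.9% above and 19.0% below. With the median of all probes the split was 10, 0 and 1, with shares of 60.5% and 18.1%. With quantile normalization it was 8, 0 and 3, with shares of 57.8% and 27.6%. Itgam was above under the first of these scalings and had neither order under the other two.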

How the data were processed

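Total RNA of 4 NM403-exposed NR8383 cultures was hybridised to 1-colour Agilent rat arrays, all on 1 slide. Per the submitters' processing notes, the authors read the scans with Agilent Feature Extraction 11.0.1.1. The deposited intensity of a spot had its background subtracted and spatial trends removed array by array, and arrays were not normalized against each other, per the file headers, which give rn4 as the rat build of the design. Flags for detection and outlier spots, values of another kind (0 or 1), are the software's, per the file headers.

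Control spots and 623 to 1016 outlier spots per array were left out, and 0 were saturated. Replicate spots were averaged as log2 values. Because 34.2% of probes were detected on all arrays, each array was scaled on the 75th percentile of those. Accessions were matched without version to RefSeq (GRCr8): 21109 probes had 1 gene, 0 several and 24489 none. A gene took its brightest probe. There was 1 group, so no test was made, and the other scalings, background correction, detection limits and leaving out each replicate served as alternatives. Named genes were the 9 members, the further pathway genes and the 3 nearest patterns, and 1 gene of the pathway list is not reported here. Members and lists were chosen with earlier results of these data known. Normexp (limma 3.58.1, offset 50) used the median spot intensity. Calculations used Python 3.11.15 and were tested on simulated data.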

Additional observations from a re-analysis of the deposited data

Results flagged for a closer look

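Of 24 complement probes called on at least 1 array, 2 had an array far from the other 3, in both cases replicate 4. Chance flags about 1 in 20 groups of 4 not chosen by their values, and that rate does not hold here, since a probe entered through being detected. Of 2 C6 probes, the dimmer read -7.81 on replicate 4 and was detected on no array. The brighter C6 probe read -4.25 on replicate 4, against -5.93 to -5.86 elsewhere. Of its 24 neighbouring spots on that array, 1 had at least 4 times its median signal on the remaining arrays. A Masp2 probe read -4.60 on replicate 4, against -8.47 to -8.16 elsewhere, with 1 such spot among 23 neighbours, and no array detected the other 2 Masp2 probes. This Masp2 probe entered through replicate 4 alone, so its distance there largely follows from how it was chosen. On replicate 4, 2 quality measures were out of range, and their part in these readings was not tested.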

How the results depend on the processing

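The count of members detected on all arrays was 4 with outlier spots kept, without any single replicate and with the 95th percentile of the negative controls as the limit. It was 5 with the looser flag, which added C1qb, and 3 when all probes of a gene had to be detected. The count for the 33 further genes was 11, and 11 to 15 over these alternatives. It was 12 without replicate 3 (C6 added) and 12 without replicate 4 (C4b added). The looser flag added C4b, C6, Cd46 and Masp1. The share of 47.9% of all named genes holds for the main call only. No such share is given for the other limits, so these changes in count are not a result about complement. The median SD of the 4 detected members was 0.402, and it ran from 0.350 with quantile normalization to 0.512 with the 75th percentile of all probes. Without each replicate in turn it ran from 0.381 to 0.408. Of the 15 complement genes detected on all arrays, that scaling changed the SD by over 1.5 times for 13, the median of all probes for 9 and quantile normalization for 5. Normexp took the SD of Vsig4 from 0.101 to 0.208, and the mean over detected probes took that of C5ar2 from 0.0570 to 0.142. Leaving out 1 replicate moved the SD by over 1.5 times for C5ar2 (0.0322) and Itgam (0.0861) without replicate 2. The same held for Vsig4 (0.0480) without replicate 3 and Fcna (0.102) without replicate 4. Mean levels of all 15 shifted under both all-probe scalings, whose zero is another. With normexp the mean of Cfb went from -3.09 to -2.79 and that of Fcna from -2.82 to -2.53. Without replicate 4, that of C5ar2 went from -2.06 to -1.93 and that of Vsig4 from 1.09 to 1.2. No paired analysis was possible because the arrays form 1 group. Matching by gene name was not run because the files hold no such column. Signal over background limits the 5 genes that were not detected, and 4 arrays leave each SD imprecise.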
